A study of Mus musculus with 9 samples.

Results

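The transcription factor p53 (gene Trp53) and 9 genes it is known to activate were followed in the newborn mouse cortex. The 10 genes, Trp53, Cdkn1a, Mdm2, Ccng1, Bax, Bbc3, Pmaip1, Sesn2, Trp53inp1 and Phlda3, were chosen by gene symbol from 2 deposited tables of 22496 and 23624 genes. Each had 1 row in each table, and all 10 passed the filter on low counts in every comparison.

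RNA was sequenced from whole dissected cortex at postnatal day 0, in 9 libraries from mice of a mixed C57BL/6J, 129S6 and CD1 background. Wild-type littermates gave 3 libraries, mice labelled ShhN IUE gave 3, and mice with hGFAP-Cre and the allele SmoM2f/+ gave 3. ShhN is the usual name of the amino-terminal signalling fragment of sonic hedgehog (SHH), and IUE of in utero electroporation, which puts DNA into some progenitors on part of the embryonic brain wall. The labels spell out neither name, and no wild-type group electroporated without ShhN is among the samples. SmoM2 is a constitutively active form of Smoothened, the protein that passes on the SHH signal, and hGFAP-Cre switches it on in cortical radial glia and the cells they give rise to. The title of the series names lineage progression of cortical neural stem cells under SHH as its subject. One table holds wild type with ShhN IUE and the other wild type with SmoM2, and the same 3 wild-type libraries stand in both, so the comparisons with wild type share their controls.

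In unstressed cells p53 protein is kept low by the ubiquitin ligase MDM2, and it is stabilised by DNA damage, oncogene activity and other stresses. It then binds DNA as a tetramer and activates genes that stop the cell cycle, repair DNA, start mitochondrial apoptosis, or feed back on p53 itself. Neural progenitors of the developing cortex are known to be sensitive to p53 activation, which can reduce brain size. Since p53 is mainly controlled as a protein, the RNA of its targets is commonly read along with that of Trp53.

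The p53 response element is made of 2 half-sites of 10 bases. Each half-site holds purines, then C, an A or T, another A or T, then G and pyrimidines. RefSeq promoter windows of 300 bases (250 before to 50 after a transcription start, build GRCm38.p6) were matched for 8 of the 10 genes, in 11 windows; Pmaip1 and Trp53inp1 had no entry. Every window was searched on both strands for its best 20 bases with no spacer between half-sites. The 5 members below had the best matches, 19 of 20 positions for Cdkn1a and Ccng1 and 17 for Trp53, Bax and Bbc3. They are shown so that they can be set beside the expression of these genes. Capitals mark bases that fit the element and lower case those that do not.
Cdkn1a: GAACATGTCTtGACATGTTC
Ccng1: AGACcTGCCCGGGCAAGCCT
Trp53: GGACTTGCCCttACTTGTTa
Bax: AGcaTAtCCCAGGCAAGCTT
Bbc3: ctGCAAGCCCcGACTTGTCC

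Cdkn1a and Ccng1 each matched 19 of 20 positions, a score that 29 of 32851 promoter windows reached (0.0883%). Cdkn1a has 2 windows, at 2 transcription starts, and its downstream window, from chr17:29093519, matched only 15 positions, a score that 76.6% of all windows reached. Its match of 19 lay at chr17:29090928-29090947 on the plus strand, 51 to 32 bases before the upstream start. The Ccng1 match lay at chr11:40755462-40755481 on the minus strand, 195 to 176 bases before its start. Both are shown here with 20 bases on each side in lower case and the element in capitals.
Cdkn1a, with flanks: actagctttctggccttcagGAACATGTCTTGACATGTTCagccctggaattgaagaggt
Ccng1, with flanks: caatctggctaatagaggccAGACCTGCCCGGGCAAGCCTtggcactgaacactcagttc

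The best windows of Trp53, Bax and Bbc3 matched 17 positions, a score reached by 6.29% of all windows. Those of Mdm2, Sesn2 and Phlda3 matched 15, a score reached by 76.6% of all windows. Bbc3 has 3 windows, and its others matched 15 and 14 positions, scores reached by 76.6% and 98.5% of all windows. The short core CATGNNNNNNCATG, searched on both strands, was present in 1 of the 11 member windows, that of Cdkn1a, and in 0.712% of all windows; it lies inside the Cdkn1a element above. Among 31 other p53 targets with a promoter entry, 1 of 42 windows reached 19 positions. A match is a description of letters, and a missing match says only that they are not in this window.

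**Figure D1:**
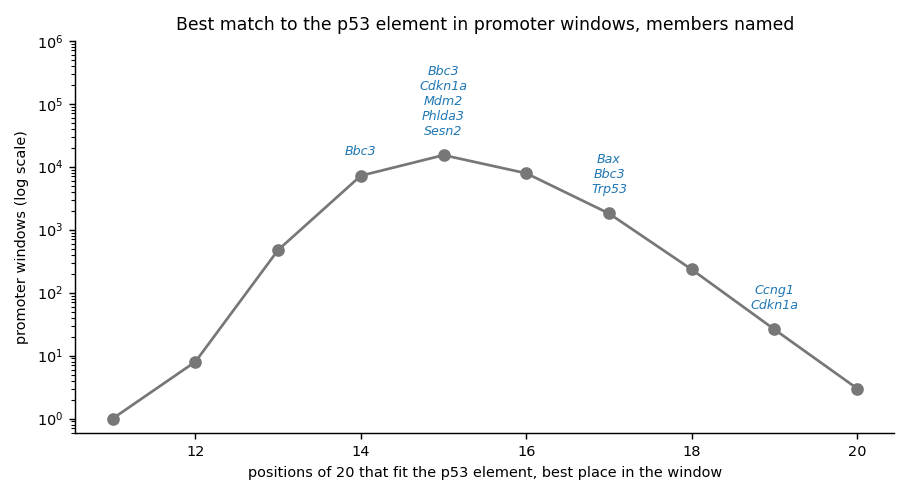
The number of promoter windows (log scale) is plotted against the positions, of 20, that fit the p53 element at the best place in each window, with the members named above the score of each of their windows. Cdkn1a and Ccng1 each have a window at 19 positions, and the other member windows stand at 14 to 17.

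Library totals ran from 15376071 to 26923127 counts. Mitochondrial genes took 2.94 to 3.34% of counts in wild type and 1.36 to 1.59% in ShhN IUE, while in the other table the same wild-type libraries had 1.37 to 1.58% and SmoM2 had 1.17 to 1.78%. Gli1, a direct readout of SHH signalling, was at 5.63 to 9.14 CPM (counts scaled to library size, per 1e+06) in wild type, 26.0 to 68.9 in ShhN IUE and 42.7 to 49.96 in SmoM2. Shh itself had 51, 52 and 455 counts in the ShhN IUE libraries against 31 to 62 in wild type, so library 3 stood apart from libraries 1 and 2. The labels do not give the species of the ShhN construct, so these mouse Shh counts may not measure it. In the marker lists below, a gene rose or fell where its edgeR adjusted p was under 0.05. Over all genes tested, 33.3% were called in ShhN IUE (16.1% higher, 17.2% lower) and 18.9% in SmoM2 (9.59% higher, 9.29% lower). Cortical pyramidal markers were present in every library. Of 10 such markers, 3 fell and 0 rose in ShhN IUE (median -0.24, summed 2209 to 2836 CPM against 2315 to 3063 in wild type), and 5 fell and 0 rose in SmoM2 (median -0.69, 2528 to 2690 CPM against 2795 to 3281). Of 18 cell cycle genes, 17 rose against wild type in each of ShhN IUE and SmoM2. The summed cell cycle genes were at 300 to 358 CPM in wild type, 707 to 807 in ShhN IUE and 598 to 812 in SmoM2. Striatal projection neuron markers fell in 9 of 10 and 10 of 10 cases, from 253 to 309 CPM in wild type to at most 109. Microglial markers (3 of 10 rose in each comparison) went from 55.3 to 97.0 CPM in wild type to 99.5 to 132 in the others. In ShhN IUE the 3 of 10 pyramidal and 3 of 10 microglial calls were each a share close to that of all genes called in either direction. Meningeal markers ran from 40.1 to 513 CPM within wild type alone and were at 76.9, 80.9 and 839 CPM in the ShhN IUE libraries. No marker gene was at 0 in all libraries. Of 5 tested blood genes, 2 rose in SmoM2 (summed 177 to 414 CPM over these 5 against 131 to 237 in wild type) and 0 were called in ShhN IUE. The part of these differences in the results on p53 targets was not tested. In whole tissue, fewer cells of a type and less RNA per cell cannot be told apart.

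Per length, Bax was the highest member in wild-type cortex and Pmaip1 the lowest. In FPKM (fragments scaled to gene length and library size, mean ± SD over 3 wild-type libraries of the ShhN IUE table), Bax stood at 40.7 ± 2.77 and Bbc3 at 9.16 ± 0.70. Ccng1 (7.34 ± 0.84), Trp53 (7.27 ± 0.53), Mdm2 (6.56 ± 0.78), Trp53inp1 (5.60 ± 0.87), Cdkn1a (5.28 ± 1.07) and Phlda3 (4.54 ± 1.03) followed. Each neighbouring pair among these 6 overlapped over the libraries. Sesn2 (2.04 ± 0.20) and Pmaip1 (1.66 ± 0.48) were lowest and overlapped each other. All values below are TMM-scaled CPM, given for libraries 1 to 3 in turn, and differences are log2 fold changes with their SE from edgeR's quasi-likelihood fit.

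Against wild type, the proapoptotic gene Bbc3 and Trp53 itself rose in both ShhN IUE and SmoM2, and the proapoptotic gene Pmaip1 fell in both. Ccng1 rose in SmoM2. The classical targets Cdkn1a and Mdm2 passed the test in neither. In ShhN IUE 2 of 10 members were called higher and 1 lower at an adjusted p under 0.05, where 16.1% of 16180 genes were called higher, 17.2% lower and 33.3% in either direction. In SmoM2 3 members were called higher and 1 lower, where 9.59% of 16485 genes were called higher, 9.29% lower and 18.9% in either direction. The 3 of 10 called in ShhN IUE is a share close to that of all genes. Groups did not overlap for 5 members in ShhN IUE and for 6 in SmoM2, beside 49.4% and 40.1% of all genes tested. The median difference over the members was -0.05 in ShhN IUE and 0.12 in SmoM2, against -0.00 and -0.01 over all genes.

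**Figure D2:**
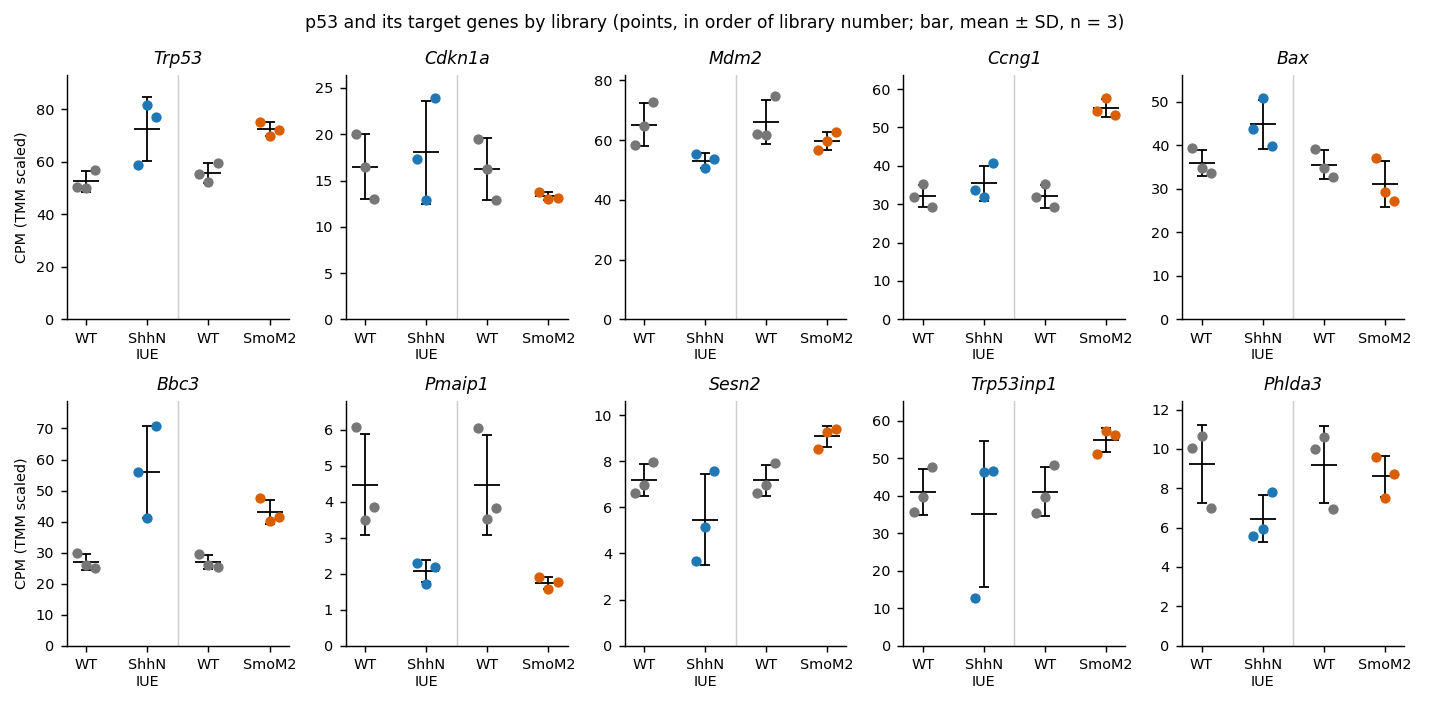
TMM-scaled CPM of the 10 genes in each library (points) with mean ± SD (n = 3), in the table with ShhN IUE (left of the grey line) and the table with SmoM2 (right). Bbc3 lies above wild type and Pmaip1 below it in all libraries of both groups, Ccng1 is raised in the SmoM2 libraries, and 1 ShhN IUE library is low for Trp53inp1.

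Trp53 (chr11:69580359-69591873) had 50.4, 50.1 and 57.1 CPM in wild type and 58.9, 81.6 and 77.1 in ShhN IUE. All ShhN IUE libraries were above all wild-type ones, library 1 only slightly. The difference was 0.46 (SE 0.15, edgeR adjusted p = 0.040), or 1.38-fold. In the other table wild type had 55.3, 52.3 and 59.6 CPM and SmoM2 had 75.3, 69.9 and 72.2. The groups did not overlap, and the difference was 0.38 (SE 0.09, edgeR adjusted p = 0.025), or 1.30-fold. Both calls were close to the threshold. In ShhN IUE the adjusted p by edgeR rose to between 0.058 and 0.111 on leaving out any 1 wild-type library, ShhN IUE library 2 or ShhN IUE library 3. In SmoM2 it rose to between 0.061 and 0.096 without wild-type library 2 or any 1 SmoM2 library.

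Mdm2 (chr10:117688888-117710758) encodes the ligase that holds p53 down and is itself a p53 target, which closes a feedback loop. It had 58.3, 64.6 and 72.6 CPM in wild type and 55.4, 50.5 and 53.5 in ShhN IUE. Every ShhN IUE library was below every wild-type one, but the difference of -0.29 (SE 0.12) missed the threshold at an edgeR adjusted p of 0.091. The SmoM2 libraries had 56.7, 59.6 and 62.6 CPM against 62.0, 61.6 and 74.7 in wild type. These groups overlapped, and the difference was -0.15 (SE 0.11, edgeR adjusted p = 0.37).

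Cdkn1a (chr17:29090979-29100722) encodes the cyclin-dependent kinase inhibitor p21, the main effector of p53 in cell cycle arrest. It had 20.02, 16.5 and 13.0 CPM in wild type and 17.3, 12.9 and 23.9 in ShhN IUE. The ShhN IUE libraries spanned the wild-type range, with library 2 below it and library 3 above. The difference was 0.13 (95% interval -0.45 to 0.70, edgeR adjusted p = 0.72), and it fell to -0.12 without ShhN IUE library 3 and to -0.02 without wild-type library 3. The SmoM2 libraries lay close together, at 13.8, 13.0 and 13.2 CPM, against 19.5, 16.3 and 12.9 in the wild type of that table. They stood at the low end of the wild-type range, and the difference was -0.29 (95% interval -0.67 to 0.10, edgeR adjusted p = 0.26). Cdkn1a, with 1 of its 2 promoter windows matching the p53 element as closely as that of Ccng1, passed the test in neither comparison.

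Ccng1 (chr11:40748552-40755311) encodes cyclin G1, a p53 target that recruits a phosphatase to act on MDM2. It had 32.0, 35.2 and 29.3 CPM in wild type and 33.7, 31.9 and 40.6 in ShhN IUE, which overlapped. That difference was 0.14 (95% interval -0.17 to 0.45, edgeR adjusted p = 0.46). SmoM2 had 54.2, 57.6 and 53.1 CPM, against 31.9, 35.2 and 29.2 in wild type. The groups were far apart, at 1.71-fold or 0.78 on the log2 scale (SE 0.10, edgeR adjusted p = 0.0022). This was the smallest adjusted p of any member in either comparison with wild type.

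Bax (chr7:45461695-45466898) encodes the effector that permeabilises the outer mitochondrial membrane. It had 39.4, 34.7 and 33.7 CPM in wild type and 43.8, 50.9 and 39.8 in ShhN IUE. The groups did not overlap, with ShhN IUE library 3 just above the highest wild-type library, and the difference of 0.32 (SE 0.13) missed the threshold at an edgeR adjusted p of 0.094. In SmoM2 it had 37.2, 29.3 and 27.1 CPM against 39.2, 34.8 and 32.7 in wild type. These overlapped, and the difference was -0.19 (SE 0.14, edgeR adjusted p = 0.38). In the GENCODE M21 annotation 12.18% of the exon bases of Bax are shared on the same strand with Gm45808. That gene has no row in the tables, so the Bax count may include reads from it. Of the exon bases of Cdkn1a, 7.68% are shared on the opposite strand with AC167363.2, also without a row.

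Bbc3 (chr7:16309616-16318205) encodes PUMA, a BH3-only protein that frees BAX and BAK from their inhibitors. It had 29.8, 25.9 and 25.2 CPM in wild type and 55.9, 41.2 and 70.8 in ShhN IUE. The lowest ShhN IUE library was well above the highest wild-type one, and the difference was 2.08-fold, 1.05 on the log2 scale (SE 0.19, edgeR adjusted p = 0.0058). The SmoM2 libraries had 47.6, 40.3 and 41.6 CPM against 29.6, 25.9 and 25.3 in wild type. The rise was 1.60-fold, 0.68 on the log2 scale (SE 0.11, edgeR adjusted p = 0.0050). The call held in both comparisons without any 1 library.

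Pmaip1 (chromosome 18) encodes NOXA, a BH3-only protein that neutralises MCL1. It was the member with the fewest counts, 70 to 117 per wild-type library, 29 to 45 in ShhN IUE and 37 to 52 in SmoM2. In CPM wild type had 6.07, 3.50 and 3.85 and ShhN IUE had 2.29, 1.72 and 2.19, so that every ShhN IUE library was below every wild-type one. The fall was 1.11 on the log2 scale, a difference of -1.11 (SE 0.30, edgeR adjusted p = 0.024). In SmoM2 the libraries had 1.91, 1.57 and 1.76 CPM against 6.04, 3.50 and 3.83, a difference of -1.35 (SE 0.27, edgeR adjusted p = 0.012). Removing wild-type library 1 (-0.82), ShhN IUE library 1 or ShhN IUE library 2 ended the first call, with edgeR adjusted p between 0.063 and 0.072. Removing SmoM2 library 2 or 3 ended the second, with edgeR adjusted p of 0.051 and 0.054.

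Sesn2 (chr4:132492032-132510501) encodes sestrin 2, a stress protein that restrains mTORC1 and is also induced by ATF4. It had 6.64, 6.95 and 7.97 CPM in wild type and 3.66, 5.16 and 7.58 in ShhN IUE, where the last library lay within the wild-type range. The difference was -0.40 (SE 0.28, edgeR adjusted p = 0.31). SmoM2 had 8.55, 9.28 and 9.39 CPM against 6.61, 6.96 and 7.93 in wild type. All SmoM2 libraries were higher, but the difference of 0.34 (SE 0.16) had an edgeR adjusted p of 0.17.

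Trp53inp1 (chr4:11156431-11174379) encodes a nuclear protein that aids p53 phosphorylation and also acts in autophagy. It had 35.5, 39.5 and 47.7 CPM in wild type and 12.6, 46.2 and 46.5 in ShhN IUE. Library 1, with 248 counts, stood far below the other two, which lay within the wild-type range. The difference was -0.22 (SE 0.42, edgeR adjusted p = 0.71) and turned to 0.18 without library 1. In SmoM2 it had 51.2, 57.3 and 56.2 CPM against 35.4, 39.5 and 48.2 in wild type. The groups did not overlap, and the difference of 0.42 (SE 0.13) fell just short of the threshold (edgeR adjusted p = 0.053), reaching it without wild-type library 3 (edgeR adjusted p = 0.015) and with DESeq2 (0.026) or limma-voom (0.045).

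Phlda3 (chr1:135766119-135769136) encodes a pleckstrin-homology protein that opposes AKT at the membrane. It had 10.1, 10.7 and 6.98 CPM in wild type and 5.59, 5.93 and 7.83 in ShhN IUE. Wild-type library 3 lay within the ShhN IUE range, and the difference was -0.52 (SE 0.24, edgeR adjusted p = 0.13). The SmoM2 libraries had 9.58, 7.50 and 8.74 CPM against 10.02, 10.6 and 6.95, all within the wild-type range, with a difference of -0.10 (SE 0.20, edgeR adjusted p = 0.78).

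The authors' deposited table for ShhN IUE marks Bbc3 as up (q = 6.25e-05) and Pmaip1 as down (q = 0.027), and gives Trp53 a q of 0.056 with no mark. The authors' deposited table for SmoM2 marks Pmaip1 as down (q = 0.0013). In that deposited table Ccng1 (q = 1.85e-05), Bbc3 (q = 0.00074) and Trp53 (q = 0.039) have a q under 0.05 and no mark of direction.

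The SmoM2 and ShhN IUE groups were also compared directly, over 12349 genes whose wild-type counts agreed between the tables, which include all 10 members. Ccng1 was higher in SmoM2 than in ShhN IUE and Bax lower. That was 1 of 10 members in each direction, beside 8.45% of genes called higher, 8.07% lower and 16.5% in either direction. Groups did not overlap for 5 members, beside 41.0% of all genes. CPM in this fit are relative to the agreeing genes and so are larger than above.

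Ccng1 had 82.4, 87.4 and 80.5 CPM in SmoM2 and 51.8, 48.9 and 61.6 in ShhN IUE, with no overlap. The difference was 0.63 (SE 0.11, edgeR adjusted p = 0.0055). Bax had 56.5, 44.4 and 41.1 CPM in SmoM2 and 67.5, 77.9 and 60.4 in ShhN IUE. All SmoM2 libraries were lower, by -0.53 (SE 0.14, edgeR adjusted p = 0.028). Removing ShhN IUE library 1 or 2 or SmoM2 library 2 or 3 ended the Bax call, with edgeR adjusted p from 0.078 to 0.113, while the Ccng1 call held without any 1 library.

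Sesn2 was the nearest to a call among the rest, with 13.0, 14.1 and 14.2 CPM in SmoM2 and 5.63, 7.91 and 11.5 in ShhN IUE. The groups did not overlap, and the difference of 0.73 (SE 0.23) had an edgeR adjusted p of 0.058, with DESeq2 0.021 and limma-voom 0.031. Without ShhN IUE library 3 it was 1.03 (edgeR adjusted p = 0.011). Bbc3 had 72.4, 61.1 and 63.0 CPM in SmoM2 and 86.0, 63.1 and 107 in ShhN IUE. The groups overlapped, with a difference of -0.38 (95% interval -0.75 to -0.01, edgeR adjusted p = 0.14), which passed the threshold without ShhN IUE library 2 (-0.56, edgeR adjusted p = 0.023). For Trp53 the difference was -0.01 (95% interval -0.28 to 0.26), and for Pmaip1 -0.25 (95% interval -0.85 to 0.34). For Cdkn1a it was -0.45 (95% interval -0.92 to 0.03), for Mdm2 0.15 (95% interval -0.07 to 0.38), for Trp53inp1 0.64 (95% interval -0.15 to 1.43) and for Phlda3 0.41 (95% interval -0.05 to 0.87). Trp53 only just met the rule for agreeing wild-type counts, a log2 ratio within 0.1. Its wild-type counts summed to 3114 beside ShhN IUE and 3310 beside SmoM2, a log2 ratio of -0.088.

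**Figure D3:**
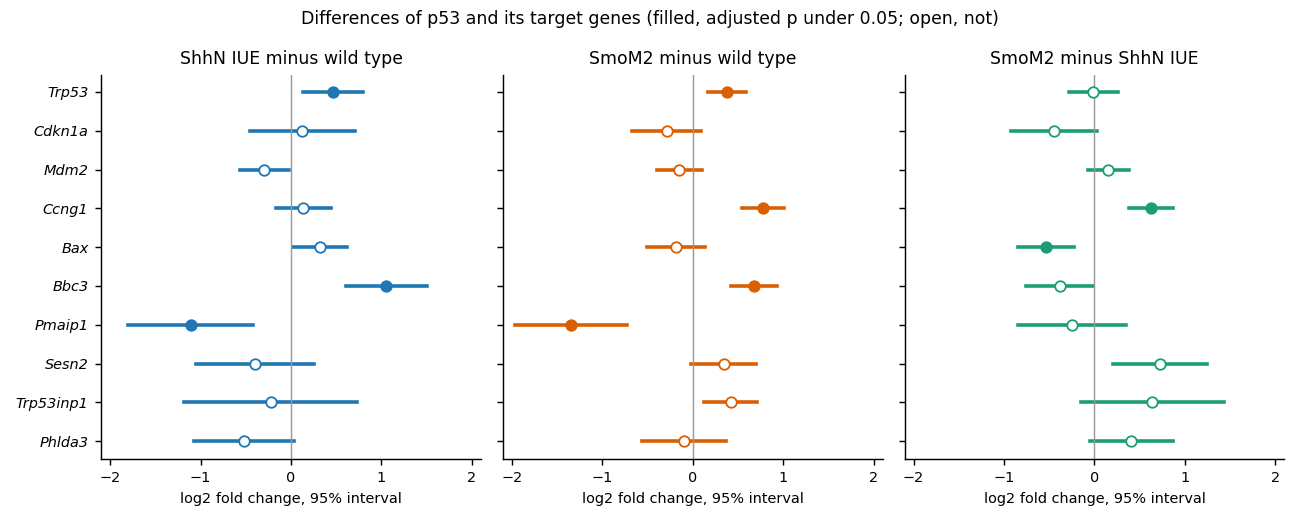
Log2 fold change with 95% interval for the 10 genes in the 3 comparisons, with filled points for an adjusted p under 0.05. Bbc3 and Trp53 are right of 0 and Pmaip1 left of it in both comparisons with wild type, and Ccng1 and Bax are the filled points between SmoM2 and ShhN IUE.

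Other known p53 targets had more calls higher than lower. Of 40 listed, 36 were tested in ShhN IUE, with 8 higher and 3 lower, beside 16.1% and 17.2% of all genes. The median difference there was 0.21, and the share called in either direction was close to the 33.3% of all genes. In SmoM2 38 were tested, with 12 higher and 3 lower, beside 9.59% and 9.29% of all genes, and a median of 0.20. Leaving out 1 library gave 7 to 10 higher in ShhN IUE and 10 to 13 in SmoM2. The count lower fell to 1 in ShhN IUE without wild-type library 2 or ShhN IUE library 1, and to 1 in SmoM2 without wild-type library 3 or any SmoM2 library.

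Psrc1, a microtubule-binding protein of dividing cells, and Btg2, an antiproliferative gene of neurogenic progenitors, rose in both comparisons. Psrc1 went from 4.10, 3.59 and 3.90 CPM in wild type to 15.5, 14.7 and 24.6 in ShhN IUE (2.24, SE 0.24, edgeR adjusted p = 0.00099), and rose by 2.01 in SmoM2. Btg2 went from 5.24, 7.54 and 8.46 CPM to 29.3, 26.5 and 36.5 in ShhN IUE (2.12, SE 0.22, edgeR adjusted p = 0.00086), and rose by 1.46 in SmoM2. Both genes were above wild type in every library of both groups.

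Eda2r, a receptor of the tumour necrosis factor family, had 2.17, 2.37 and 2.52 CPM in wild type and 6.79, 9.49 and 9.39 in SmoM2. That was a rise of 1.86 (SE 0.21, edgeR adjusted p = 0.0011), while the ShhN IUE libraries, at 3.20, 2.20 and 5.89 CPM, overlapped wild type (0.67, edgeR adjusted p = 0.20). Zmat3, an RNA-binding target of p53, fell by 0.46 in ShhN IUE (edgeR adjusted p = 0.041), a call that ended on removing wild-type library 2 or 3 or ShhN IUE library 1 or 3 (0.108 to 0.123), and was at -0.19 in SmoM2 (0.31). Gadd45a (0.47 and 0.42), Sesn1 (0.28 and 0.22) and Aen (-0.30 and 0.28) passed the test in neither comparison.

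Of 24 listed regulators of p53, 21 were tested in ShhN IUE (3 higher, 4 lower, median 0.15), a share called that was close to the 33.3% of all genes. In SmoM2 22 were tested (4 higher, 2 lower, median 0.14), beside 18.9% of all genes called. Without SmoM2 library 3 the SmoM2 count was 1 in each direction, and without SmoM2 library 2 it was 2 higher. Chek2, a checkpoint kinase that phosphorylates p53, rose by 1.29 in ShhN IUE and 1.39 in SmoM2. Ppp1r13l, which encodes the inhibitory binding partner iASPP, rose by 1.30 and 0.88, and Ppp1r13b, which encodes the stimulating partner ASPP1, fell by 1.11 and 0.70. Usp28, a deubiquitinase acting with 53BP1, rose by 0.42 and 0.46. Of these calls, that of Ppp1r13l in SmoM2 was lost without wild-type library 1 or 2 or any SmoM2 library (edgeR adjusted p from 0.080 to 0.126). Those of Chek2 and Usp28 in ShhN IUE were lost without wild-type library 3 for Chek2 (0.053) and without wild-type library 2 or ShhN IUE library 1 for Usp28 (0.052 and 0.066), and removing SmoM2 library 3 put Usp28 in SmoM2 at 0.0505. Mdm4, the partner of MDM2 that masks the p53 activation domain, had 132, 133 and 130 CPM in wild type and 152, 191 and 191 in SmoM2. That rise of 0.44 (edgeR adjusted p = 0.023) was lost without SmoM2 library 2 or 3 (0.079 and 0.096), and in ShhN IUE the difference was 0.23 (0.081). The wild-type counts of Mdm4 did not agree between the tables, so it was not compared between SmoM2 and ShhN IUE. Nor did those of Aen, Gadd45a, Bad, Bcl2l1, Cdk4, Cdkn1b, Cdkn2c, Asns and Ddit3, which are named in other paragraphs. For these genes too, the ShhN IUE and SmoM2 differences rest on unlike counts of the same wild-type libraries. Ppm1d, the phosphatase that resets p53, was at -0.28 and -0.20 and passed in neither.

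Among 21 tested genes of the BCL2 family and caspases, 2 rose and 5 fell in ShhN IUE (median -0.00), a share close to the 33.3% of all genes called. In SmoM2 2 rose and 3 fell (median 0.05), beside 18.9% of all genes. Without ShhN IUE library 1 the count lower in ShhN IUE was 1, and without wild-type library 1 or 2 it was 3. Without SmoM2 library 2 or 3 the count higher in SmoM2 was 1. Birc5, the mitotic protein survivin, rose by 1.46 and 1.16. Bid, which links death receptors to mitochondria, fell by 0.60 and 0.42. Removing ShhN IUE library 1 ended its ShhN IUE call (edgeR adjusted p = 0.056), and removing wild-type library 1 or 2 or any SmoM2 library its SmoM2 call (0.086 to 0.156). The antiapoptotic gene Bcl2 fell by 0.49 in SmoM2 (edgeR adjusted p = 0.0083) and was at -0.34 in ShhN IUE (0.057). Bad, a BH3-only gene, rose by 0.74 in ShhN IUE and was at 0.28 in SmoM2. Bak1 (-0.12 and -0.18) and Bcl2l1 (-0.31 and 0.06) passed in neither.

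Of 15 CDK inhibitors, G1 cyclins and their kinases, 6 rose and 1 fell in ShhN IUE (median 0.51), beside 16.1% and 17.2% of all genes. In SmoM2 8 rose and 0 fell (median 0.64), beside 9.59% and 9.29% of all genes. Leaving out 1 library gave 5 to 7 higher in ShhN IUE, with 2 lower without wild-type library 2, and 3 to 8 higher in SmoM2. The lowest SmoM2 count came without SmoM2 library 3, with 4 without SmoM2 library 1 and 5 without SmoM2 library 2 or wild-type library 1. Ccnd2, the D-type cyclin of cortical progenitors, rose by 1.65 and 1.50, Cdk2 by 1.27 and 1.02, and Cdk4 by 0.66 in both. The inhibitor gene Cdkn2c rose by 0.76 and 0.83, with the SmoM2 call lost without SmoM2 library 1 or 3, while Cdkn1b (-0.29 and -0.05) and Cdkn1c (0.21 and -0.01) passed in neither. Cdkn2a had too few counts to be tested. Mki67, a marker of dividing cells, rose by 1.74 and 1.56.

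Of the paralogs of members 5 were tested in each comparison, with 1 higher and 1 lower in ShhN IUE (median 0.28) and 1 higher and 2 lower in SmoM2 (median 0.22), beside 33.3% and 18.9% of all genes called in either direction. Phlda1 fell by 0.69 in ShhN IUE, a call that ended on removing wild-type library 2 or ShhN IUE library 1 or 2, and by 0.49 in SmoM2, a call that ended on removing wild-type library 2 or 3 or any SmoM2 library. Ccng2, a paralog of Ccng1, rose by 0.49 in ShhN IUE (edgeR adjusted p = 0.047) and was at 0.26 in SmoM2 (0.25). That call ended on removing wild-type library 1 or 2 or any ShhN IUE library (edgeR adjusted p from 0.065 to 0.132). Sesn3, a paralog of Sesn2, rose by 0.47 in SmoM2 and was at 0.38 in ShhN IUE. Trp53inp2 fell by 0.33 in SmoM2 and was at -0.33 in ShhN IUE. The SmoM2 calls of both were lost without any 1 SmoM2 library (edgeR adjusted p from 0.053 to 0.117), and that of Trp53inp2 also without wild-type library 1 or 3.

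Genes of the integrated stress response, shared with ATF4, which also acts on Sesn2, gave 2 higher and 1 lower of 12 in ShhN IUE and 2 of each in SmoM2, with medians of 0.46 and 0.09, beside 33.3% and 18.9% of all genes called in either direction. Without any 1 SmoM2 library 0 were higher and 1 lower in SmoM2, and without wild-type library 2 or 3 or ShhN IUE library 3 the count higher in ShhN IUE was 1. Sesn3 is on this list and on that of the paralogs, so its SmoM2 rise is counted in both. Asns, asparagine synthetase, fell by 1.04 and 0.70. Atf4 itself fell by 0.40 in SmoM2, a call lost without any 1 SmoM2 library (edgeR adjusted p from 0.053 to 0.092), and was at -0.38 in ShhN IUE (edgeR adjusted p = 0.065). Ddit4, an mTORC1 inhibitor induced by p53, hypoxia and glucocorticoids, had 35.6, 50.5 and 41.3 CPM in wild type and 172, 86.2 and 326 in ShhN IUE. The ShhN IUE libraries were all above wild type and spread widely, with a difference of 2.20 (SE 0.42, edgeR adjusted p = 0.0067). SmoM2 had 47.7, 31.7 and 41.0 CPM, with a difference of -0.06 (edgeR adjusted p = 0.84). Ddit3 was at 0.54 and -0.01 and passed in neither.

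**Figure D4:**
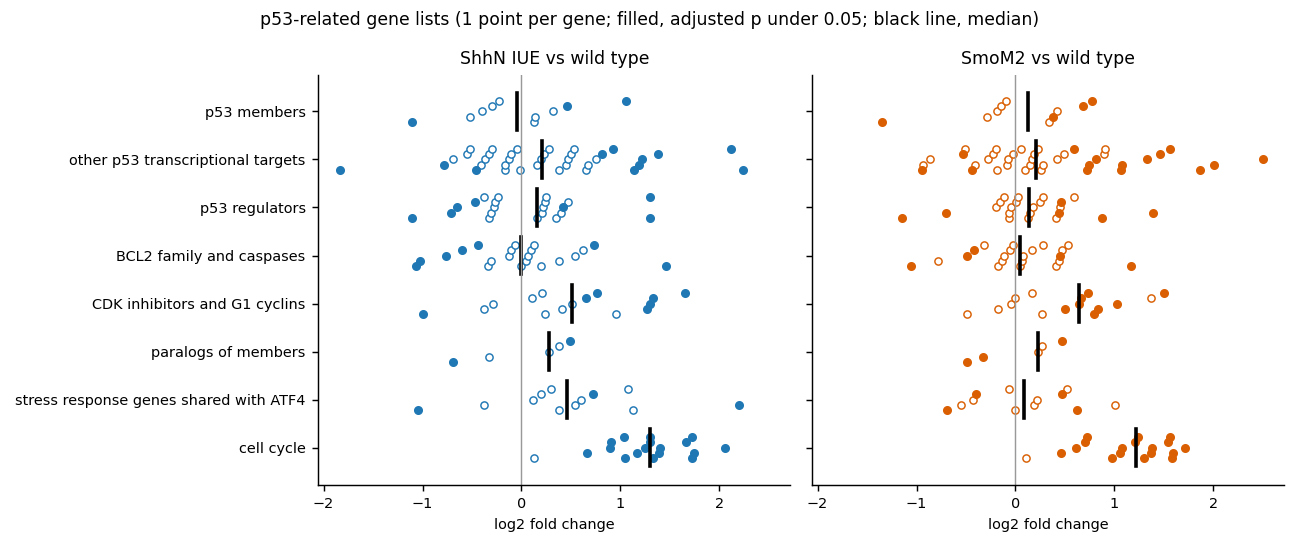
Log2 fold change against wild type of each tested gene of 8 lists, in ShhN IUE (left) and SmoM2 (right), with filled points for an adjusted p under 0.05 and a black line at the list's median. The p53 lists scatter on both sides of 0, with medians from -0.05 to 0.21, and the cell cycle list lies to the right, with medians of 1.30 and 1.22.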

How the data were processed

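Groups and replicate numbers were taken from sample titles. Whether replicates are separate animals is not in the labels, so p-values cover only sample-to-sample spread, which may be technical. Per the file headers, each of the 2 deposited tables gives for every gene a read count and an FPKM value per library, and the authors' p-value and q-value. Builds GRCm38.p4 and mm10, and the tools edgeR, StringTie and HISAT2, are listed in the submitters' processing notes. Read assignment and use of strand: not given in the sources used here.

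Counts were tested in R 4.3.3 with edgeR 4.0.16 (quasi-likelihood F test, TMM scaling, its default expression filter), over all genes, with Benjamini-Hochberg adjustment and a threshold of 0.05. Each group was tested against the wild type of its own table. The tables count the shared wild-type libraries differently for part of the genes. All 9 libraries were therefore fitted together only over genes whose summed wild-type counts, with 5 added, agreed within 0.1 on the log2 scale (16195 of 22268), with wild-type counts averaged over tables. SE is the log2 fold change divided by the root of F. Replicates differed by more than sampling noise. Coordinates are those of the deposited tables. Functions were tested on simulated counts.

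The members and the gene lists were chosen with earlier results of these data known. Named genes are the 10 members, from each other list up to 4 genes ranked by adjusted p (a few are not reported here), list genes that passed in both comparisons with wild type where a list has few, and a set always named, such as Mdm4 and Mki67. The alternatives run were DESeq2 1.42.0 and limma-voom (limma 3.58.1), scaling by RLE or upper quartile, filtering at 1 CPM in 3 libraries or not at all, a block for replicate number, a 2-fold minimum, removal of each library, and other rules for agreeing wild-type counts. Counts of each list without each library were added after the data were seen.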

Additional observations from a re-analysis of the deposited data

Results flagged for a closer look

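Considered here were the 10 members and Btg2, Eda2r and Ddit4, which were picked by name. Of the 10 members, Ccng1 and Bax differed when SmoM2 and ShhN IUE were tested directly against each other (edgeR, adjusted over 12349 genes). Eda2r, Btg2 and Ddit4 also differed, but as picked genes they do not measure how often list genes differed. Other list genes were called too. In all, 3 of 30 tested other p53 targets were higher in SmoM2 and 5 lower, beside 8.45% and 8.07% of all genes. Of 14 tested p53 regulators 2 were higher and 1 lower, and of 9 tested stress response genes 0 and 2. Ccng1 was higher in SmoM2 by 0.63 on the log2 scale (SE 0.11, edgeR adjusted p = 0.0055), in 3 of 3 libraries above all ShhN IUE ones. Eda2r was higher by 1.18 (SE 0.31, edgeR adjusted p = 0.028), a call lost without ShhN IUE library 1 or 2 or SmoM2 library 2 or 3 (0.056 to 0.099). Bax differed by -0.53 (SE 0.14, edgeR adjusted p = 0.028). Btg2 differed by -0.68 (SE 0.18, edgeR adjusted p = 0.027), a call lost without ShhN IUE library 1 or 3 or any SmoM2 library (0.060 to 0.108). Ddit4 differed by -2.28 (SE 0.38, edgeR adjusted p = 0.0039), with 72.6, 48.1 and 62.0 CPM in SmoM2 and 264, 132 and 494 in ShhN IUE.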

How the results depend on the processing

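Bbc3 in both comparisons with wild type and Ccng1 in SmoM2 kept direction and call under every alternative run except the 2-fold minimum, which asks for a difference above 2-fold. That minimum left 215 genes called in ShhN IUE, 180 in SmoM2 and 40 between SmoM2 and ShhN IUE, and 0 members in any direction. At an adjusted p under 0.05 without it, the counts were 5380, 3112 and 2040.

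Leaving out 1 library at a time gave 3251 to 4624 genes called in ShhN IUE, 1334 to 3010 in SmoM2 and 834 to 2336 between them. The low counts came without ShhN IUE library 1 (3251), without SmoM2 library 1, 2 or 3 (1727, 1694 and 1334), and between SmoM2 and ShhN IUE without ShhN IUE library 1 (936) or SmoM2 library 1, 2 or 3 (1125, 834 and 962). Fewer samples then enter each fit. Members called higher numbered 1 to 2 in ShhN IUE, 2 to 4 in SmoM2 and 1 to 2 between them, and members called lower 0 to 1 in each. DESeq2 and limma-voom called 2 members higher between SmoM2 and ShhN IUE, the second being Sesn2.

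The values below gave no sign that replicate numbers pair the samples, but with 3 libraries per group they cannot settle it. Deviations of same-numbered libraries correlated at 0.26, -0.32 and -0.11 with ShhN IUE and at -0.08, -0.14 and 0.05 with SmoM2, and not every library correlated best with its own number. With the replicate number as a block, 3962, 2468 and 1499 genes were called, and 1 member was called higher in ShhN IUE (Trp53 at an edgeR adjusted p of 0.064) and 4 in SmoM2 (Trp53inp1 at 0.047).

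Differences that turned direction were all of genes not called in that comparison. On leaving out 1 library at a time in ShhN IUE, Cdkn1a ran from -0.12 to 0.33 (negative without wild-type library 3, at -0.02, and without ShhN IUE library 3), Trp53inp1 from -0.47 to 0.18 (positive without ShhN IUE library 1) and Aen from -0.66 to 0.015. In SmoM2, Phlda3 ran from -0.25 to 0.016, Ddit4 from -0.20 to 0.093, Cdkn1b from -0.23 to 0.30, Cdkn1c from -0.14 to 0.072 and Ddit3 from -0.12 to 0.15. Between SmoM2 and ShhN IUE, Trp53 ran from -0.13 to 0.087. With no filter, Cdkn1c was at 0.016 and Ddit3 at 0.019 in SmoM2, and Trp53 at 0.0097 between SmoM2 and ShhN IUE. With limma-voom, Cdkn1b was at 0.015, Ddit3 at 0.0054 and Trp53 at 0.0064. With the replicate block, Cdkn1b was at 0.0080 and Ddit3 at 0.0089. The cause was not tested.

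Depth was lowest for Pmaip1, which rests on 29 to 117 counts per library.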
